A study of Mus musculus with 6 samples.

Results

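TRBV1 is the V segment of the mouse T-cell receptor beta chain (TCRB) locus that lies farthest from the D and J segments. It was examined here in splenic T follicular regulatory (Tfr) cells, Foxp3-positive helper-lineage cells that restrain B-cell responses in follicles. The cells came from 3 mice of the Foxp3GFP genotype, with a superior and an inferior sample from each, words that the labels define no further. All 6 samples share the genotype, tissue and cell type; no treatment, age or sort gate is given in the labels, and the files hold rearranged genomic DNA without expression values, so the labelled cell type was not checked against markers. TRBV1 rearrangements were all rows whose V call starts with TCRBV01. They numbered 213 of 4238 distinct nucleotide rearrangements, or 226 of 4409 rows when a rearrangement found in 2 samples is counted in each. All carried 1 allele name. The deposited whole-number counts are called templates (input DNA molecules) here, although the files do not say whether they count templates or reads. TRBV1 held 343 of 7043 templates, 4.87%. The 6 samples held 667 to 1855 templates in all and 33 to 101 templates of TRBV1, so shares within TRBV1 rest on few counts.

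A beta chain gene is assembled by RAG recombinase, which joins a D to a J segment and then a V segment to the DJ join. The complementarity-determining region 3 (CDR3) spans that junction and contacts peptide, and its first residues are encoded by the V segment. Distal V segments reach the DJ region through contraction of the locus. TRBV1, listed in RefSeq with the older synonym Tcrb-V2, has no near neighbour among V segments.

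By RefSeq coordinates on GRCm38.p6 (mm10), Trbv1 lies on chromosome 6 from 40891296 to 40891885. It is the first of 35 annotated Trbv genes in chromosomal order, and 34 of them lie before Trbd1, which starts at 41533201. From the end of Trbv1 to the start of Trbd1 the distance is 641 kb. The next V segment, Trbv2 (41047556 to 41047995), starts 156 kb after Trbv1, whereas the largest gap between other neighbouring Trbv genes on that side of Trbd1 is 30.2 kb. The interval between Trbv1 and Trbv2 holds 6 annotated genes, 5 of them protein-coding, and includes the serine protease gene Prss58.

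The rearrangement of TRBV1 with the most templates in each mouse (in mouse 3, the first of a tie) is printed here to show what the segment contributes. Each is 87 bases, 5′ to 3′, from the deposited files, and the capitals mark the CDR3 from its first cysteine codon to the base before the last CDR3 residue. The listed sequences end before that last residue.
Mouse 1, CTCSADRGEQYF with TRBJ2-7: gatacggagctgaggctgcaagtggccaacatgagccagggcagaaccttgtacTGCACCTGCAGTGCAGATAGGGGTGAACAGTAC
Mouse 2, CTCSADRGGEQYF with TRBJ2-7: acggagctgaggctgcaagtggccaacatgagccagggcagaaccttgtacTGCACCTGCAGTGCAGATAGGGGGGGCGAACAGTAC
Mouse 3, rearrangement with TRBJ2-1: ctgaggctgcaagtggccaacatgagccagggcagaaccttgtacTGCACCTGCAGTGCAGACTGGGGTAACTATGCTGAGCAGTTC
All 3 begin the CDR3 with the same 15 bases, TGCACCTGCAGTGCA, which encode CTCSA. Counting each TRBV1 CDR3 base sequence and J pairing once, 199 had a CDR3 that starts with cysteine, and of these 59.3% matched these 15 bases throughout. The match to the most frequent base at each position held in 96.5% up to base 12, in 92.0% up to base 13 and in 75.9% up to base 14. Base 17, the last with a most frequent base above the 40% used here, was reached in 32.7%. The departures from the common start therefore began mainly in the fifth and sixth codons.

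TRBV1 CDR3s carried a second cysteine. Of 222 listed TRBV1 rearrangements with a CDR3 that starts with cysteine, 220 (99.1%, 95% Wilson interval 96.8 to 99.8) had cysteine also at position 3, counted from the first cysteine as position 1. In all other V segments it was 2 of 4146 (0.0482%, 0.0132 to 0.176). These intervals and all others here cover counting error only. Cysteine anywhere after position 1 was found in 8 of the 4146, and cysteine after position 3 in 0 of 222 TRBV1 CDR3s. The start CTCS was found in 216 and CTCSA in 168 of 222 TRBV1 CDR3s, against 0 of 4146 for both in other V segments (upper 95% Wilson bound 0.0926%). The usual start of other segments, CASS, was found in 2838 of 4146 CDR3s (68.5%) and in 0 of 222 for TRBV1 (upper bound 1.70%). The first CDR3 residues are encoded by the V segment, but no germline sequence of TRBV1 was compared here. Whether a choice among cells adds to this contrast was not tested. The 2 listings without the second cysteine were 1 rearrangement of mouse 1, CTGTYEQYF with TRBJ2-7, found in both samples, in which the listed CDR3 keeps only the first 6 bases of the common start:
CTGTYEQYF, mouse 1: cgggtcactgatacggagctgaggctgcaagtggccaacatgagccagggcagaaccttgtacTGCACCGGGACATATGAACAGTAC
A further 4 TRBV1 listings of 1 template each had a CDR3 beginning with another residue; they enter the counts of use and not the CDR3 features.

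After CTCSA, aspartate was the most frequent residue at position 6, in 65 of 168 CDR3s, followed by glycine in 30, glutamate in 12 and arginine in 11. Over all TRBV1 CDR3s, aspartate stood at position 6 in 32.4% (26.6 to 38.8), against 13.8% (12.8 to 14.9) in other V segments. The share was higher than in other segments in each mouse, at 18.6%, 43.1% and 33.7% in mice 1, 2 and 3 against 13.2%, 13.0% and 14.9%. The most frequent TRBV1 bases ran on into the sixth codon, with G at base 16 in 64.8% and A at base 17 in 47.2%. How far position 6 is encoded by the V segment was not tested, so this contrast is not shown to be a choice among cells. A strongly hydrophobic residue or cysteine (F, I, L, M, V, W, Y or C) at position 6 or 7 was found in 25.2% (19.97 to 31.3) of TRBV1 and 28.7% (27.3 to 30.0) of other CDR3s, with overlapping intervals. Glycine at position 6 was found in 18.5% and 25.2%.

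TRBV1 was in the middle of the V segment order. Its share of templates was 4.95% (superior) and 4.16% (inferior) in mouse 1, 5.21% and 4.35% in mouse 2, and 4.84% and 5.44% in mouse 3. The lowest and highest both come from inferior samples, and the superior and inferior values overlap. The mean was 4.82% ± 0.493 (SD, n = 6), the ninth highest of 29 V segments named in the files. TRBV20 with 4.86% ± 0.706, TRBV13-3 with 4.83% ± 0.542 and TRBV31 with 4.32% ± 0.762 were its neighbours in that order and did not differ from it beyond their spread. TRBV5, the fifth most used with 7.17% ± 0.937, was above TRBV1 in all 6 samples. By listed rearrangements, each counted once, TRBV1 held 5.14% ± 0.573 and ranked seventh.

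**Figure D1:**
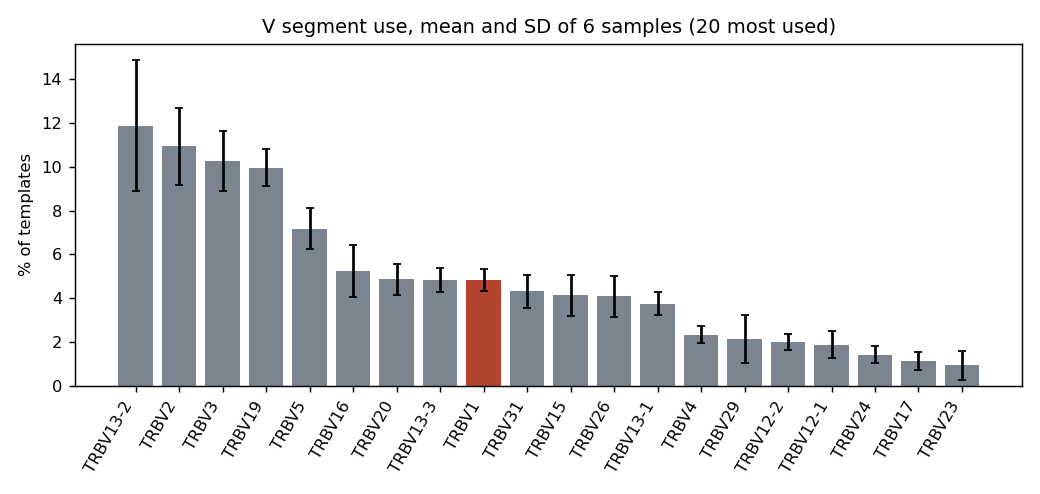
Share of templates (y axis, percent) of the 20 most used V segments (x axis), as bars for the mean and error bars for the SD of 6 samples, with TRBV1 in red. TRBV1, at 4.82%, lies among TRBV20, TRBV13-3 and TRBV31 and below TRBV5 at 7.17%.

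**Figure D2:**
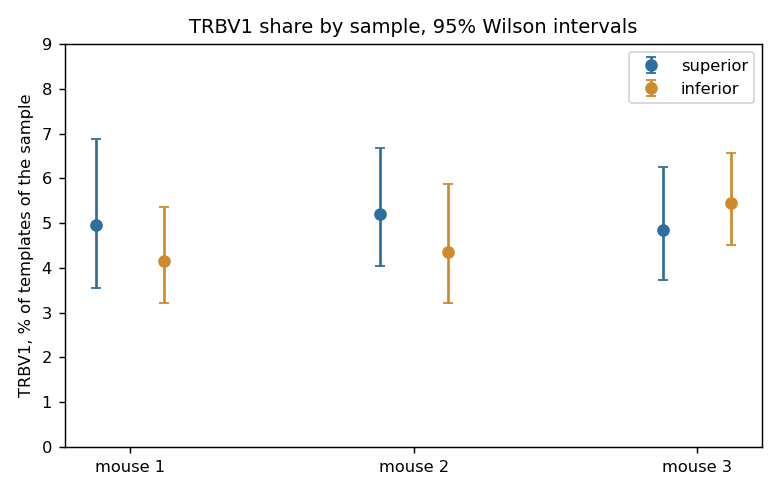
TRBV1 share of templates (y axis, percent) in the superior and inferior sample of each mouse (x axis), with 95% Wilson intervals as error bars. The points lie between 4.16% and 5.44%, and the intervals of the 2 samples of a mouse overlap in all 3 mice.

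The share of TRBV1 was not shown to differ between superior and inferior samples. Its mean was 5.0% ± 0.187 over the superior samples and 4.65% ± 0.694 over the inferior ones (SD, n = 3 each). It was higher in the superior sample of mice 1 and 2 and lower in that of mouse 3. The log2 difference, superior over inferior, was 0.09 (SE 0.21, edgeR's quasi-likelihood test, Benjamini-Hochberg adjusted p = 0.915). The test called 0 of 23 V segments tested, 0%, with 2 at unadjusted p under 0.05 by edgeR and 0 by DESeq2. A TRBV1 rearrangement held a mean of 1.42 ± 0.0925 templates in the superior group against 1.56 ± 0.160 in the inferior group (n = 3 each, two-sided exact permutation p = 0.3, where the smallest p that 3 against 3 samples allow is 0.1). The other V segments went the same way, with 1.53 ± 0.0694 against 1.65 ± 0.0158 (exact permutation p = 0.1), so this direction was not particular to TRBV1.

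No J segment was called as used differently by TRBV1 and by the other V segments. J segments encode the end of the CDR3, and the 2 J clusters each follow their own D segment. TRBJ2-7 was the most used partner of TRBV1, with 25.6%, 30.9% and 25% of its templates in mice 1, 2 and 3, against 32.7%, 37.1% and 28.2% for all other V segments. TRBV1 was lower in 3 of 3 mice, a mean of 27.2% ± 3.27 against 32.7% ± 4.44 (SD, n = 3 mice; log2 -0.26, SE 0.12, edgeR adjusted p = 0.372). TRBJ1-5 showed the largest difference, with 18.9%, 9.28% and 7.05% of TRBV1 templates against 4.37%, 3.13% and 4.87% for the others. TRBV1 was higher in 3 of 3 mice, a mean of 11.7% ± 6.29 against 4.12% ± 0.897 (log2 1.41, SE 0.40, edgeR unadjusted p = 0.0254, adjusted p = 0.305). Without mouse 1, the mouse with the highest share, the log2 difference was 1.01, and without mouse 3 it was 1.90. With each rearrangement counted once it was 1.32 (edgeR unadjusted p = 0.0827, adjusted p = 0.553). With merged rearrangements counted once it was 1.28 (edgeR unadjusted p = 0.108, adjusted p = 0.912).

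TRBJ2-4 was also higher in TRBV1 in 3 of 3 mice, with 10.2% ± 2.78 against 6.44% ± 0.587 (log2 0.63, SE 0.27, edgeR adjusted p = 0.372). The log2 difference was 0.35 without mouse 2 and 0.30 with merged rearrangements counted once. TRBJ2-1 held 8.33% ± 0.603 of TRBV1 and 9.09% ± 1.17 of other templates; its difference of -0.10 (edgeR adjusted p = 0.828) turned to 0.011 with TMM scaling, to 0.021 by DESeq2 and to 0.037 without mouse 1. TRBJ2-5 held 7.20% ± 3.21 and 9.17% ± 0.302 (log2 -0.33, edgeR adjusted p = 0.828), and the log2 difference was -0.78 without mouse 3 and -0.16 without mouse 1 or without mouse 2. TRBJ2-2 was uneven among mice, at 1.11%, 1.03% and 12.8% of TRBV1 templates, against 5.34%, 5.69% and 6.53% in other V segments. TRBJ1-7 and TRBJ2-6 were not found with TRBV1. They were rare in the other V segments too, with 4 and 2 of 6700 templates, so this absence is not particular to TRBV1. The test called 0 of 12 J segments, 0%, with 1 at unadjusted p under 0.05 by edgeR, which was TRBJ1-5, and 1 by DESeq2. On simulated J counts of these sizes, edgeR recovered 12.5% of 2-fold and 45% of 3-fold changes, so differences of that size could be missed.

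**Figure D3:**
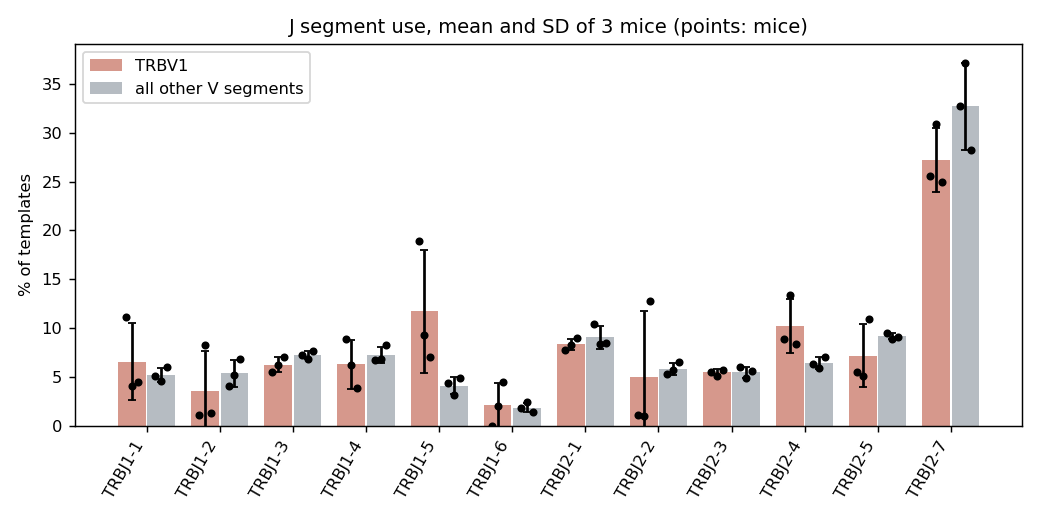
Share of templates (y axis, percent) of each J segment (x axis) within TRBV1 (red) and within all other V segments (grey). Bars are means and error bars SDs of 3 mice, with 1 point per mouse; the axis is limited at 0. TRBJ1-5 lies higher in TRBV1 in all 3 mice (11.7% against 4.12%), and mouse 1 has the highest of these values.

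TRBV1 joined to TRBJ1-5 consisted of clones of at most 5 templates. It held 37 templates in 18 listings. A listing held a mean of 2.06 templates, against 1.52 over all TRBV1 listings and 2.07 for TRBJ1-5 in other V segments. TRBJ1-5 was picked for its large difference in TRBV1, so the rank that follows is a description only. Among the 14 V segments with 100 or more listed rearrangements, TRBV1 had the highest share of TRBJ1-5, at 10.8% of templates and 7.96% of listings. It was followed in listings by TRBV20 with 5.48%, and in templates by TRBV13-1 with 7.89% and TRBV20 with 7.47%. The largest clone of TRBV1 with TRBJ1-5 was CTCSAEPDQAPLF of mouse 1, seen with 2 superior and 3 inferior templates. It is printed here as an example of this pairing, and the J-encoded end QAPLF is cut before its last residue:
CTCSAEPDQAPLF, mouse 1: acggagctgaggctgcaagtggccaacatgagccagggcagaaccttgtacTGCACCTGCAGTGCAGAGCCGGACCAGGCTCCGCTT
Of this pairing, 4, 2 and 0 templates came from the superior samples in the order of mice 1, 2 and 3, or 12.1%, 3.51% and 0% of their TRBV1 templates. The inferior samples held 13, 7 and 11 templates, or 22.8%, 17.5% and 10.9%. The inferior sample was higher in each mouse, but the superior sample of mouse 1 lies above the inferior sample of mouse 3, so the groups overlap. This split by sample was looked at after its values were seen and was not tested.

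In J profile, taken as shares of listed rearrangements over all samples, TRBV1 was closest to TRBV13-3, with a Jensen-Shannon distance of 0.116, then to TRBV20 with 0.126 and TRBV13-1 with 0.151. The farthest was TRBV4, with 0.221. The distance of TRBV1 to all other segments pooled was 0.124, the tenth largest of the 14 V segments measured this way, so its J profile was not among the most unusual. These distances are descriptions, and they grow as a segment has fewer rearrangements.

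The balance of the J clusters differed among mice. The TRBJ2 cluster held 54.4%, 63.9% and 71.8% of TRBV1 templates in mice 1, 2 and 3, against 70.5%, 70.9% and 65.0% of other templates. TRBV1 was thus lower in mice 1 and 2 and higher in mouse 3. The mean difference was -5.39 percentage points ± 11.5 (SD, n = 3 mice, two-sided exact permutation p = 0.5, where 3 mice allow no p below 0.25), and it was -0.0619 without mouse 1 and -11.5 without mouse 3.

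The TRBD1 share of TRBV1 was not shown to differ from that of the other V segments. TRBD1 lies before both J clusters and can join either, while TRBD2 lies between them and joins TRBJ2 by deletion. Among TRBV1 templates with a named D segment, TRBD1 held 62.9%, 44.4% and 62.9% in mice 1, 2 and 3, against 53.8%, 54.3% and 60.6% in other segments. The mean difference was 0.531 percentage points ± 9.61 (n = 3 mice, exact permutation p = 1), and it turned to -3.77 without mouse 1 and to -0.357 without mouse 3. With TRBJ1 segments, TRBD1 made up 92.2% ± 7.44 of named D segments in TRBV1 and 92.2% ± 2.69 in others; with TRBJ2 segments it was 40.8% ± 14.7 and 41.5% ± 1.80. TRBD2 was nevertheless listed with a TRBJ1 segment in 4 TRBV1 and 82 other listings. No D segment was named for 22.2% of TRBV1 and 18.9% of other templates. Unnamed ones had shorter CDR3s in both, with a mean of 13.4 residues against 14.3 where a D was named in TRBV1, and 12.9 against 13.9 in others.

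TRBV1 CDR3s were longer on average than those of the other V segments in each mouse. Weighted by templates, they averaged 13.9, 14.0 and 14.3 residues in mice 1, 2 and 3, against 13.7 in each mouse for the others. The mean difference was 0.366 residues ± 0.225 (SD, n = 3 mice, two-sided exact permutation p = 0.25, the smallest possible), with TRBV1 longer in 3 of 3 mice and in 5 of 6 samples. The exception was the inferior sample of mouse 1, with 13.6 residues for both, which holds the clone of 8 templates, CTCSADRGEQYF, of 12 residues. With TRBJ2-7 only the difference was 0.135 ± 0.353 and with the remaining J segments 0.406 ± 0.237, a split added after the data were seen. TRBV1 was not the segment with the longest CDR3s. Among the same 14 V segments, the means over mice ran from 12.99 residues for TRBV20 to 14.3 for TRBV5, and TRBV1, at 14.1 ± 0.235, had the third longest, next to TRBV2 at 14.1 ± 0.330.

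Long CDR3s were more frequent in TRBV1 than in all other V segments pooled. Single V segments were not compared for this share. CDR3s of 16 residues or more made up 41 of 222 TRBV1 listings (18.5%, 13.9 to 24.1) and 381 of 4146 others (9.19%, 8.35 to 10.1), and the share was higher in TRBV1 in each mouse, at 11.9%, 24.6% and 18.4% against 8.93%, 9.85% and 8.94%. CDR3s of 12 residues or fewer made up 15.8% (11.6 to 21.1) and 16.7% (15.6 to 17.9). At 13 residues, TRBV1 had 13.1% and the others 23.8% of listings. TRBV1 lengths ranged from 9 to 19 residues.

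**Figure D4:**
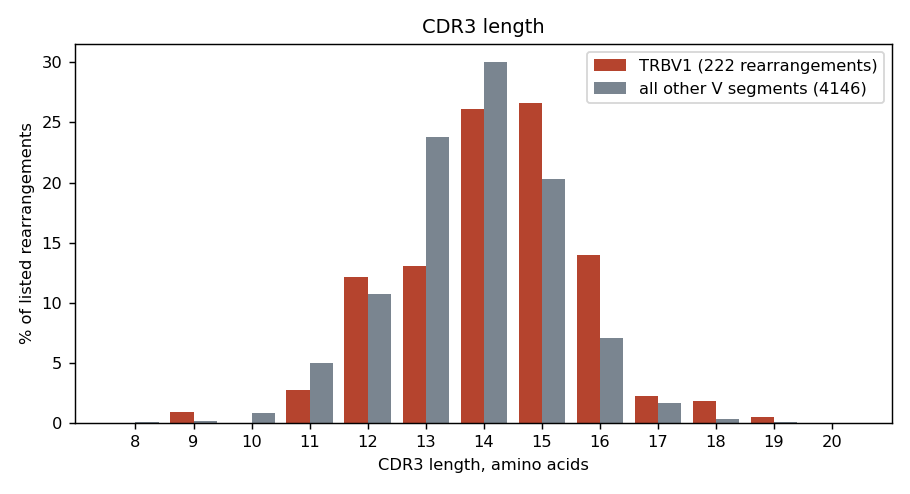
CDR3 length in amino acids (x axis) against percent of listed rearrangements (y axis) for 222 TRBV1 and 4146 other listings. TRBV1 has fewer CDR3s of 13 residues (13.1% against 23.8%) and more of 16 (14.0% against 7.07%).

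Within TRBV1, CDR3 length and TRBJ2-7 use were not shown to differ between superior and inferior samples. Mean length was 14.2 ± 0.170 residues in the superior group against 14.0 ± 0.360 in the inferior group (n = 3 each, exact permutation p = 0.7), and the difference of 0.142 turned to -0.0924 without mouse 1. TRBJ2-7 held 15.2%, 33.3% and 25.5% of TRBV1 templates in the superior samples of mice 1, 2 and 3 and 31.6%, 27.5% and 24.8% in the inferior ones. The groups overlap (exact permutation p = 0.7), and the difference of -3.30 percentage points turned to 3.27 without mouse 1.

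TRBV1 was in the middle of the V segments in templates per rearrangement, with the ninth highest mean of the 14 segments with 100 or more listings. A TRBV1 rearrangement averaged 1.53, 1.45 and 1.56 templates in mice 1, 2 and 3, against 1.58, 1.63 and 1.60 for other V segments, lower in 3 of 3 mice. The difference was -0.0913 templates ± 0.0753 (SD, n = 3 mice, exact permutation p = 0.25, the smallest possible). It was -0.195 with merged rearrangements and -0.0481 without mouse 2. Without TRBV2, the segment with the most templates per listing (2.52), the difference was -0.0177, an alternative added after the data were seen. Among rearrangements with TRBJ2-7, whose listings held more templates in both classes, it was 0.0818 ± 0.437, with 2.39 templates per TRBV1 and 2.31 per other listing, and among the rest -0.0571. Of all 226 TRBV1 listings, 64.6% had 1 template, against 65.4% of others, and 2 (0.885%) had 5 or more, against 126 of 4183 (3.01%).

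With listings of the same J segment and CDR3 protein sequence taken as 1 clonotype, the largest was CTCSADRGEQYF with TRBJ2-7 in mouse 1, with 8 templates in the inferior sample (0.584%) and 0 of 667 in the superior one, which allows a share of up to 0.450% (3 counts of the total). It was followed in mouse 1 by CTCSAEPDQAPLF with TRBJ1-5, with 5 templates, and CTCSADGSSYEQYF with TRBJ2-7, with 3. In mouse 2 the largest were a clonotype of 15 residues with TRBJ2-4 that starts CTCSG, 5 templates in the inferior sample, and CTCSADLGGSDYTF with TRBJ1-2 and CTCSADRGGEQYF with TRBJ2-7, 4 templates each in the superior sample. In mouse 3 they were the printed TRBJ2-1 rearrangement with 5 templates in the inferior sample, one with TRBJ2-7 that starts CTCSAG, with 3 superior and 2 inferior templates, and one with TRBJ2-7 that starts CTCSAD, with 4 in the inferior sample. Ties were broken by CDR3 spelling, so some equally large clonotypes are not named. Listed rearrangements of 5 or more templates, not merged, were compared between the 2 libraries of a mouse by Fisher's exact test, adjusted over all V segments. It called 0 of 2 TRBV1 rearrangements tested in mouse 1 and 0 of 2 in mouse 3, with 0 at unadjusted p under 0.05, and no unmerged TRBV1 listing reached the minimum in mouse 2. Over all V segments it called 16.3%, 20.9% and 26.3% of those tested in mice 1, 2 and 3. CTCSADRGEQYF had the smallest adjusted p of these 4 (Fisher's exact test, adjusted p = 0.196). All its 8 templates were in the inferior sample, and even this split gave an unadjusted p of 0.0593 by Fisher's exact test. The TRBJ2-1 rearrangement of mouse 3, with all 5 templates in the inferior sample, gave 0.164 by the same test. At such counts the test could not call a rearrangement found only in the inferior sample of these mice. With listings of the same CDR3 bases merged, 5 TRBV1 clonotypes were tested, 0 were called and 1 had an unadjusted p under 0.05: the TRBJ2-4 clonotype of mouse 2 (Fisher's exact test, unadjusted p = 0.0197, adjusted p = 0.0581).

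Some TRBV1 rearrangements were found in both samples of mice 1 and 3, and 0 in mouse 2. Mouse 1 had 5 of 54 TRBV1 rearrangements in both samples (9.26%, 4.02 to 19.9) against 33 of 1198 others (2.75%, 1.97 to 3.84). Mouse 3 had 8 of 92 (8.70%, 4.47 to 16.2) against 58 of 1714 (3.38%, 2.63 to 4.35). Mouse 2 had 0 of 67, for which 3 counts of the total give a limit of 4.48% and the Wilson interval an upper bound of 5.42%, against 58 of 1122 (5.17%, 4.02 to 6.62). TRBV1 was thus higher than the other segments in mice 1 and 3 and lower in mouse 2, the mouse with the highest share in other segments. The intervals do not overlap in mice 1 and 3, and they overlap in mouse 2. The mean difference was 2.22 percentage points ± 6.42 (SD, n = 3 mice, exact permutation p = 0.5), and it was 5.91 without mouse 2, 0.0712 without mouse 1 and 0.668 without mouse 3. With listings of the same CDR3 bases merged, the intervals overlap in mice 1 and 3 too. They were then 4.02 to 19.9 for TRBV1 against 2.12 to 4.17 for the others in mouse 1. In mouse 3 they were 4.52 to 16.4 against 2.92 to 4.82.

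The shared TRBV1 clonotypes were small on both sides, at 1 to 3 templates in each sample. In mouse 1 they were led by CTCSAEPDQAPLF with TRBJ1-5, 2 superior and 3 inferior templates, then by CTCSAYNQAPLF with TRBJ1-5 and a TRBJ1-1 clonotype that starts CTCSAD, both with 1 superior and 2 inferior templates. In mouse 3 they were led by the TRBJ2-7 clonotype that starts CTCSAG, printed here as the largest shared one of that mouse, followed by 2 clonotypes with TRBJ2-2, starting CTCSAD and CTCSAA:
Shared TRBJ2-7 rearrangement, mouse 3: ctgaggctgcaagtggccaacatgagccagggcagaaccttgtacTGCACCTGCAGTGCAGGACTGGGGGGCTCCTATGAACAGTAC
These shared rearrangements held 17.8% of TRBV1 templates in mouse 1 and 14.7% in mouse 3, against 9.09% and 7.69% of other templates; in mouse 2 they held 0% and 16.6%.

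**Figure D5:**
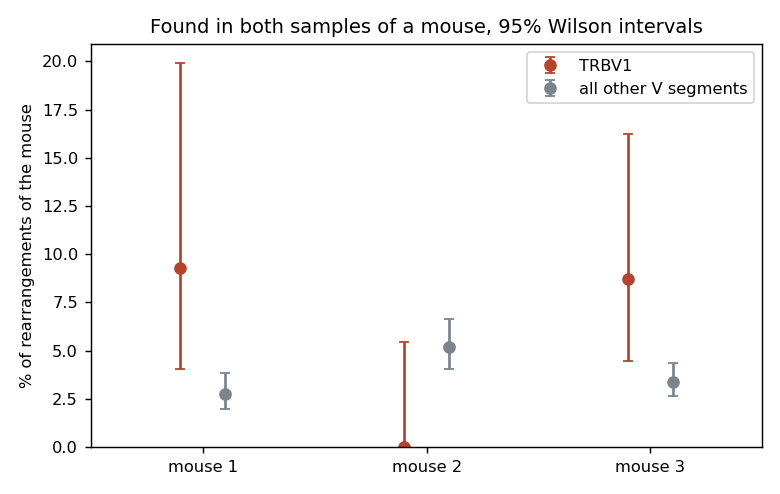
Percent of the distinct rearrangements of a mouse (y axis) found in both its superior and inferior sample, for TRBV1 (red) and all other V segments (grey) in 3 mice (x axis), with 95% Wilson intervals as error bars. TRBV1 lies above the others in mice 1 and 3 and at 0 of 67 in mouse 2.

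Between mice, 0 of 213 TRBV1 nucleotide rearrangements were shared, with a limit of 1.41% by 3 counts and an upper Wilson bound of 1.77%, against 9 of 4025 others (0.224%), so a difference was not detectable at this depth. By CDR3 amino acids, 1 of 202 TRBV1 clonotypes (0.495%, 0.0874 to 2.75) and 29 of 3549 others (0.817%, 0.570 to 1.17) were found in 2 or more mice. As a share of the clonotypes of each mouse, the mean difference between TRBV1 and the others was -0.734 percentage points ± 1.18 (n = 3 mice, exact permutation p = 0.5), and it turned to 0.744 without mouse 1, which holds no shared TRBV1 clonotype. A clonotype found in 2 mice enters the values of both, so the 3 values are not independent. The shared TRBV1 clonotype was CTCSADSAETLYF with TRBJ2-3, with 1 template in the superior sample of mouse 2 and 1 in that of mouse 3, and no D segment was named in either. It was the TRBV1 clonotype with more than 1 CDR3 nucleotide form, as the sequences of both mice show:
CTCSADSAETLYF, mouse 2: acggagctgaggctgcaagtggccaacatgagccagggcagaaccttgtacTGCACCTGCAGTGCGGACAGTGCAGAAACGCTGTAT
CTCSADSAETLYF, mouse 3: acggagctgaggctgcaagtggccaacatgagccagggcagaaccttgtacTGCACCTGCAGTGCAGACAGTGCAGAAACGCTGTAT
The 2 forms encode the same CDR3 and were each the form of 1 mouse.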

How the data were processed

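Per the labels' protocols, TCRB rearrangements in genomic DNA of splenic Tfr cells were sequenced by immunoSEQ (mouse kit, survey depth). The authors deposited a whole-number count per distinct nucleotide rearrangement and a productive frequency, a fraction that equals the count divided by the sample's total. The submitters' processing notes name mm10; for the aligner, the caller and any filter, the tool is not given in the sources used here.

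V and J names were matched to RefSeq symbols. Segment counts were tested with edgeR 4.0.16 (R 4.3.3, quasi-likelihood, common dispersion, segments of 10 or more templates, Benjamini-Hochberg at 0.05), with DESeq2 1.42.0 as an alternative. J use was fitted on templates summed per mouse and V class with the mouse as a block. Printed SEs are those that give the test's p. Single values were compared by exact permutation: over 3 against 3 samples, or by turning the signs of 3 mouse differences. Per mouse, each clonotype with a total of at least 5 was tested by two-sided Fisher's exact test, which compares libraries. Python 3.11.15 and scipy 1.17.1 were used. On simulated V counts, edgeR recovered 62.5% of 2-fold changes over 23 segments. Named clonotypes were the 3 largest TRBV1 clonotypes per mouse, up to 3 per mouse found in both samples, and those found in 2 or more mice (ties broken by CDR3 spelling); named J segments were the 5 most used by TRBV1, and further ones were named after their values were seen.

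The 2 samples of a mouse come from the same animal, which pairs them. Over 23 V segments, the correlation between the deviations of both samples from their groups' means was 0.144 in mouse 1, -0.147 in mouse 2 and -0.272 in mouse 3. The samples of a mouse are no separate animals, so n is 3 mice. The V segment, the lists and the tests were chosen with earlier results of these data known.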

Additional observations from a re-analysis of the deposited data

How the results depend on the processing

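With the mouse as a replicate block, the log2 difference of TRBV1 share was 0.09 (SE 0.22, edgeR adjusted p = 0.935), and TRBV1 use was still not called. For CDR3 length and TRBJ2-7 share, superior against inferior, the exact tests cannot pass 0.05 with or without the block. Their smallest p is 0.25 with it and 0.1 without it, so the block could change no call there. Over all alternatives tried, edgeR and DESeq2 called 0 V and 0 J segments, Fisher's exact test called 0 TRBV1 clonotypes, and TRBV1 use stayed positive, at 0.01 to 0.26 without 1 mouse each. For Fisher's exact test, a minimum of 10 templates left 0 TRBV1 clonotypes to test, so its 0 calls were fixed. A minimum of 3 left 31, with 2 at unadjusted p under 0.05. Over all V segments it then called 2 of 158, 1 of 153 and 0 of 262 in mice 1, 2 and 3. The exact tests over mice cannot pass 0.05, so they say nothing about stability. Among the single-value differences between TRBV1 and the other V segments, those that turned in sign were the TRBD1 share, at -3.77 to 5.72 percentage points without 1 mouse each and -0.784 with TRBJ2 only, the share of clonotypes found in another mouse, at -1.19 to 0.744 without 1 mouse each, and the mean templates per rearrangement, at 0.0818 with TRBJ2-7 only. Superior minus inferior, the mean CDR3 length was -0.0924 to 0.270 residues and the TRBJ2-7 share -7.86 to 3.27 percentage points without 1 mouse each. The log2 difference of TRBJ2-1 was 0.0109 with TMM, 0.0207 by DESeq2 and -0.222 to 0.0367 without 1 mouse each. Uncalled J segments outside the 5 most used turned too, among them TRBJ2-2 (-0.34, and 0.09 without the replicate block), TRBJ1-1 (0.22, and -0.31 without mouse 1) and TRBJ1-4 (-0.28, and 0.17 with each rearrangement counted once). The cause of these turns was not tested. CDR3 length kept its direction in all 8 alternatives, at 0.135 to 0.449 residues. With 33 to 101 TRBV1 templates per sample, depth limits every share within TRBV1.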

Other observations

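Repeated listings of 1 TRBV1 CDR3 were found almost only in mouse 2. When listings with identical segments and CDR3 bases were merged, mouse 1 kept all 54 TRBV1 rearrangements, mouse 2 kept 58 out of 67, and mouse 3 kept 91 out of 92. The other V segments lost 10.3%, 11.5% and 9.86% in mice 1, 2 and 3. The most repeated TRBV1 CDR3 was one of 15 residues with TRBJ2-4 in the inferior sample of mouse 2, listed as 5 rearrangements of 1 template each with identical CDR3 bases, shown in capitals; their bases before the CDR3 differ, mostly near the 5′ end:
Listing 1: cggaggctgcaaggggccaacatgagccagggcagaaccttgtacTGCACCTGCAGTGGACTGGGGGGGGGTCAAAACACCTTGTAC
Listing 2: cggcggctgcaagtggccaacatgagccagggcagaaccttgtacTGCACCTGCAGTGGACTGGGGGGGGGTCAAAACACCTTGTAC
Listing 3: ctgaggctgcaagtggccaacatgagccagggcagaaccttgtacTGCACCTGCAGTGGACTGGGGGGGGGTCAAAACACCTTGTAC
Listing 4: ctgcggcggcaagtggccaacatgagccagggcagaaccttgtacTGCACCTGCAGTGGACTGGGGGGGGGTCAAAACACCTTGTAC
Listing 5: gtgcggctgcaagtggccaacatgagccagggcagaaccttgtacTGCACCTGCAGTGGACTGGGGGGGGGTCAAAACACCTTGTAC
Over the 40 bases before the CDR3, 59 of 59 TRBV1 listings of mouse 1, 57 of 65 of mouse 2 and 97 of 98 of mouse 3 were equal to the most frequent TRBV1 base at each position. Of the 5 listings, 2 differed from those bases, at 1 position each. Counted as 1 clonotype, this CDR3 had 5 templates in the inferior and 0 in the superior sample of mouse 2 (two-sided Fisher's exact test, unadjusted p = 0.0197, adjusted p = 0.0581).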
